A study of Mus musculus with 12 samples.

Results

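Peaks at gene ends are the places where an antibody against 5-methylcytosine (m5C) enriched RNA fragments over input close to the end of a gene. A peak was counted when it overlapped exactly 1 protein-coding gene span of at least 2000 bases on its own strand and its midpoint lay in the last 1000 bases of that span. Of the 72319 peaks in 6 deposited lists, 5922 (8.19%) met this rule, in 2314 genes. The tissue was hippocampus, taken from wild-type female mice of strain C57BL/6, with 3 lists at 3 months of age (labelled young) and 3 at 18 months (labelled natural aging), each made from 1 immunoprecipitated library and its input. All mice were of one genotype, and the labels name no treatment other than age. Whether each list stands for its own animal is not in the labels, so p-values reflect only how far these samples differ, and that spread could be technical. No read counts came with the lists, so the depth behind each peak is unknown.

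The end of a protein-coding gene usually holds its last exon, with the stop codon and the 3' untranslated region that ends at the polyadenylation site. Cleavage there is guided by a hexamer, most often AATAAA or ATTAAA, a short way upstream of the cut. In mRNA, m5C is placed mainly by NSUN2 and NSUN6 and bound by ALYREF and YBX1, proteins of mRNA export and stability. An antibody peak marks a stretch of RNA and does not resolve the modified base.

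To show what such an end looks like, the final 30 bases of 8 host genes are given below in the direction of the gene, with the first hexamer of either kind in capitals. They are the hosts with a gene-end peak in at least 2 lists whose end falls inside a RefSeq promoter window of a neighbouring gene (build GRCm38.p6, the mm10 assembly), since only such windows gave sequence.
Akap8l: tccagcctAATAAAgtgctttcccatctga
Ecsit: tccccgtttggcgccgcgggcagagaagac
Fgf11: ctgtaATTAAAgatgatttatacaaccgga
Mapkbp1: cAATAAAcacaatcatttgttaacctgcta
Ndufa13: tggtcaAATAAAatgttgactctatagtga
Pfdn5: taatgttAATAAAtgtgaccgctgcgcaaa
Sec24c: gtaaagaAATAAAataagatgtaaccagta
2610507B11Rik: attgtattgagtaaaagcgttcaagttgtc
These ends lie at chr17:32321424-32321453, chr9:22071435-22071464, chr11:69796068-69796097, chr2:120027374-120027403, chr8:69894163-69894192, chr15:102331461-102331490, chr14:20694823-20694852 and chr11:78290596-78290625, on the minus strand for Akap8l, Ecsit, Fgf11 and Ndufa13 and on the plus strand for the others. Over all 16 hosts with such a window, AATAAA stood in the final 30 bases of 9 and ATTAAA in 3, and 4 had neither, searched on the gene's own strand. Among all 105 genes of at least 2000 bases with such a window, 63.8% had either hexamer. Ecsit and 2610507B11Rik showed neither in these 30 bases. The Ndufa13 peaks, in 1 list at 3 months and 3 at 18 months, reached from near this end upstream to 69894410.

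Gene-end peaks were more numerous at 18 months, while their share of all peaks in gene spans was not. No difference between the ages in this paragraph or the next passed 0.05. The 3-month lists held 821, 707 and 902 of them and the 18-month lists 1187, 1108 and 1197. Every 18-month list thus lay above every 3-month list, at 1164 ± 48.8 against 810 ± 98.0 (SD, n = 3 each), 1.44 times as many. The two-sided exact permutation test gave p = 0.1, below which 3 lists against 3 cannot go, and 0.15 after Benjamini-Hochberg adjustment over the 6 comparisons of this kind. As a share of all peaks whose midpoint lay in an eligible span, gene-end peaks made up 8.70%, 8.71% and 9.10% at 3 months and 8.10%, 8.21% and 8.70% at 18 months. The lists of both ages met near 8.70%, and the means of 8.84% ± 0.227 and 8.34% ± 0.318 did not pass the test (exact permutation p = 0.2, adjusted 0.24). The 18-month lists were also longer, with 1.51 times as many peaks in all. With each list limited to its 8549 highest-scoring peaks, the 3-month lists held 721.3 and the 18-month lists 673 gene-end peaks on average, so the order turned (exact permutation p = 0.1).

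The number of gene-end peaks relative to gene-start peaks was lower in every 18-month list. There were 1.05, 0.979 and 1.04 gene-end peaks for each peak with its midpoint in the first 1000 bases of a span at 3 months, and 0.867, 0.802 and 0.955 at 18 months. The groups did not overlap, with means of 1.02 ± 0.0371 and 0.874 ± 0.0767 (exact permutation p = 0.1, adjusted 0.15). Behind this, gene-start peaks were 1.69 times and gene-end peaks 1.44 times as many at 18 months, and peaks elsewhere in the spans 1.52 times. The direction held with lists of equal length, where the ratio was 0.9997 at 3 months and 0.802 at 18 months (exact permutation p = 0.1).

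**Figure D1:**
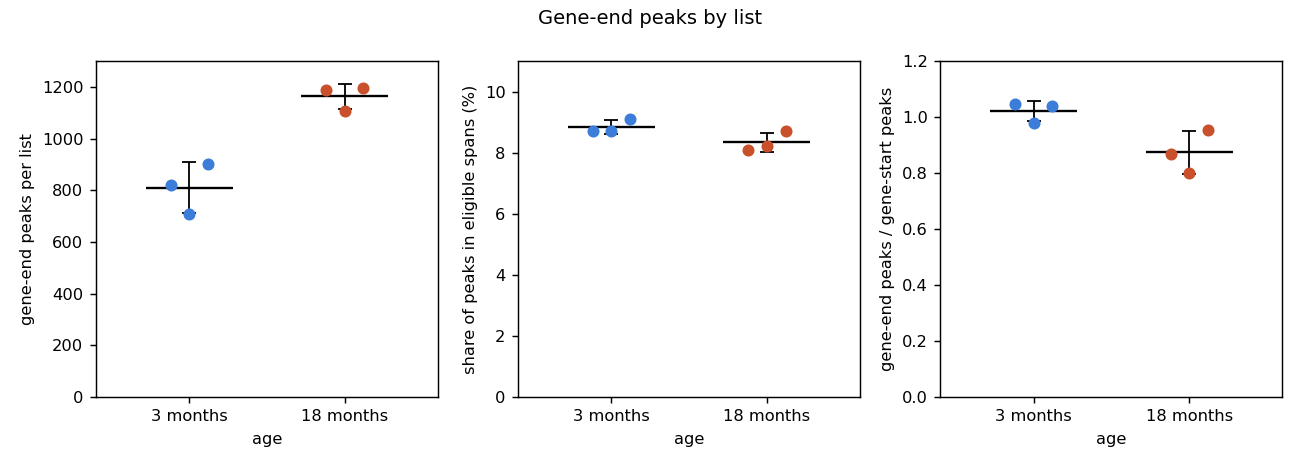
Gene-end peaks in each list (points), with the mean (line) and SD (bars) of 3 lists per age. Left, number per list; middle, share of peaks in eligible spans in percent; right, number of gene-end peaks divided by that of gene-start peaks. The 18-month lists, at 1108 to 1197 peaks, all lie above the 3-month lists, at 707 to 902, while in the right panel they all lie below.

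Within the window, peaks were not spread evenly. Summed over the lists, 244 midpoints fell in the final 100 bases, where a midpoint can lie only if the peak is short or runs past the end. The number was 733 between 300 and 400 bases from the end and 349 between 1900 and 2000. The 572 peaks with midpoints 900 to 1000 bases from the end had medians of 1416.5 bases in width and 50.6 in score percentile. The 518 peaks at 1000 to 1100 bases, just outside the window, had 1196.5 bases and 45.5. The median distance of the midpoint from the gene end was 520.2 ± 17.5 bases at 3 months and 504.7 ± 4.54 at 18 months (exact permutation p = 0.3).

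**Figure D2:**
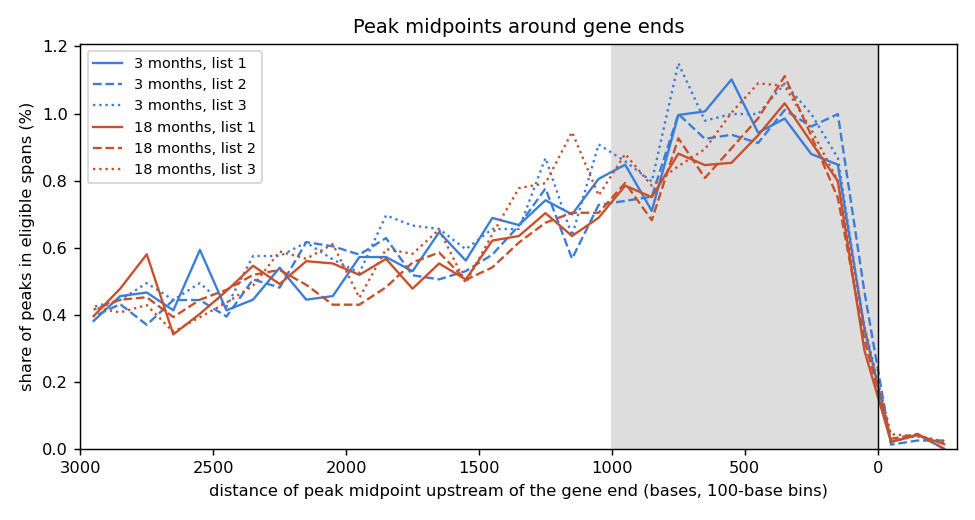
Share of each list's peaks in eligible spans (percent) whose midpoint lay at a given distance upstream of the gene end, in 100-base bins, with the counted window in grey. All 6 lists have their high part inside the window and drop near the gene end.

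The 3' border of the peaks often stopped where the RefSeq gene stops. It lay exactly on the last base of the span in 37.1% ± 2.54 of gene-end peaks at 3 months and in 37.0% ± 2.28 at 18 months, and within 10 bases of it in 55.6% ± 2.12 and 54.4% ± 2.86 (exact permutation p = 1 and 0.6). Gene-start peaks met the first base of the span less often, in 24.4% to 27.3% of cases per list. In 11.2% to 11.9% of gene-end peaks per list the border lay beyond the RefSeq end.

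Gene-end peaks were wide. Their median width was 807, 702 and 782 bases in the 3-month lists and 752, 766 and 795 in the 18-month lists, so the ages overlapped (exact permutation p = 0.9). In the same lists gene-start peaks had medians of 269.5 to 279.5 bases and peaks elsewhere in the span 187 to 196, so in every list the gene-end value was the largest of the 3. Between 28.7% and 36.7% of gene-end peaks per list spanned 1000 bases or more, compared with 2.22% to 3.19% at gene starts and 13.1% to 15.6% elsewhere. Their borders also varied more from list to list. Of 325 gene-end regions with exactly 1 peak in each of the 6 lists, 101 (31.1%) had the same start and end in all of them. The share was 63.4% of 418 such regions at gene starts and 77.7% of 3258 elsewhere.

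The median scores of gene-end peaks were not unusual. The score is the authors' own value per peak, from about 50 to 3233, and was used here to describe or rank peaks within a list. Scores of one region in several lists are given side by side as the authors' values, with no comparison between lists. Gene-end peaks had a median percentile of 48.9, 49.2 and 50.3 within the 3-month lists and 48.5, 47.5 and 48.5 within the 18-month lists, the middle of each list. The 18-month lists lay lower, with means of 48.2 ± 0.582 against 49.4 ± 0.733 (exact permutation p = 0.1, adjusted 0.15), but with lists of equal length they lay higher, at 50.03 against 49.01. Gene-start peaks stood at 52.4 to 57.2. Scores of 3100 or more, at the upper end of the scale, were held by 4.32% to 6.35% of gene-end peaks. Among peaks elsewhere in the spans it was 3.10% to 4.54%, and the gene-end share was the higher one in every list.

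Gene-end peaks took their largest share in short genes. In genes with spans of 2 to 10 kb, 32.1% ± 0.852 of peaks at 3 months and 30.6% ± 0.350 at 18 months were gene-end peaks (exact permutation p = 0.1), and in genes of 200 kb or more 2.70% ± 0.229 and 2.49% ± 0.264 (exact permutation p = 0.3). The window is a fixed 1000 bases, so it takes up more of a short span. Of the 9046 genes with any peak in an eligible span, 25.6% were hosts, namely 45.8% of the 1486 genes of 2 to 10 kb and 13.7% of the 766 genes of 200 kb or more. The median span was 19478.5 bases in hosts and 39366 in other genes with a peak. Hosts had a gene-start peak about as often as the others, in 21.5% and 23.1% of cases. In 824 hosts no peak lay anywhere else in the span in any list. Nearly every host had a single gene-end region, and 19 had 2 separate ones, among them Actc1, Alyref, Arhgef1, Chordc1 and Hspe1. In Actc1, cardiac alpha-actin, the outer region had a peak in all 6 lists and the inner one in 2 lists at 3 months and 3 at 18 months. In Arhgef1 the outer region was restricted to 18 months and the inner one had a peak in 1 list at 3 months.

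Most gene-end peaks were not present in every list. A gene-end peak was found in all 6 lists in 267 hosts (11.5%), where 32.1% of all genes with a peak had one anywhere in the span in all 6, and in exactly 1 list in 980 (42.4%, with 22.3% for any peak over all genes). A gene-end window is smaller than a whole span. Counted by region, 36.1% of gene-end regions and 34.7% of all regions were present in exactly 1 list. Some peak anywhere in the span was present in every list in 853 hosts, and 235 of these had the gene-end peak in 1 list. More 18-month than 3-month lists had the peak in 1271 hosts and fewer in 528. Host sets of 2 lists shared 0.428 to 0.443 of their union (Jaccard index) among 18-month lists, 0.389 to 0.443 among 3-month lists and 0.305 to 0.393 between ages, given as a description.

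**Figure D3:**
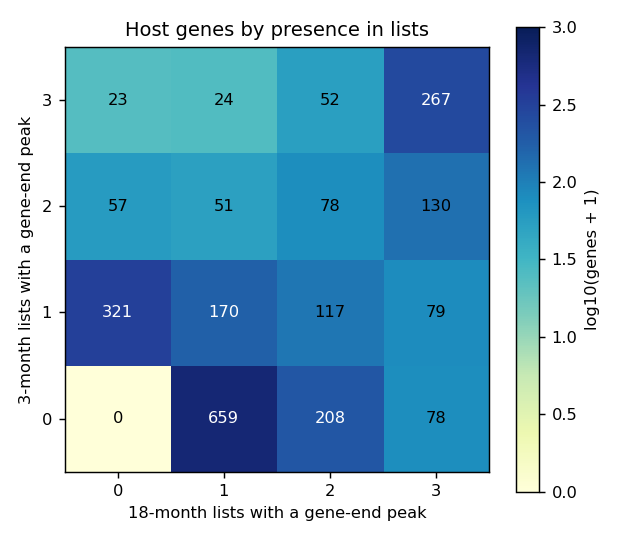
Number of host genes by how many 3-month (vertical axis) and 18-month lists (horizontal axis) held a gene-end peak, coloured by log10 of the number plus 1. The corners with all lists of one age and none of the other hold 78 genes for 18 months and 23 for 3 months, and 267 genes have all 6.

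The gene ends of Rrp1, Acin1, Calr and Hmgn5 were among those with top scores in all lists. Regions were made by joining peaks of all lists that touched or overlapped on one strand. A region with a gene-end peak was present in all 6 lists in 367 of 2333 cases (15.7%), next to 17.6% of all 24501 regions. In 31 of them the best score was 3100 or more in every list, and those ranked here were tied at 3100. The 12 named here are Rrp1 and 11 of those 31, taken in alphabetical order of symbol, and do not stand above the other tied regions. Rrp1, a ribosome biogenesis protein, lay on chromosome 10 from 78400362 to 78400984, with scores of 3100, 2999 and 3233 at 3 months and 3100 in each 18-month list. Its borders were the same in all lists and ended on the last base of the gene. Acin1, an RNA-binding protein of the exon junction complex, lay on chromosome 14 from 54642161 to 54643048, Anp32a on chromosome 9 from 62377554 to 62378812 and Anp32b, a related histone-binding protein, on chromosome 4 from 46472087 to 46472657. Atpif1, the inhibitor of the mitochondrial ATP synthase, had a region of 269 bases on chromosome 4 from 132530555 to 132530823. The others were Calr, Frrs1l, Gpatch4, Gtf2f1, Hmgn5, Fbxw7 and Clcn4. In Fbxw7 the midpoint was inside the window in 4 lists. In Clcn4, with a region of 1966 bases, this was so in 1 list, where the midpoint lay 983 bases from the end. The widest regions in all 6 lists were those of Hjurp, a histone chaperone of the centromere, at 7803 bases, Castor2, an arginine sensor homologue, at 6115, Frrs1l, an AMPA receptor assembly factor, at 5988, Celf1, an RNA-binding protein, at 4619, and Nuak1, a kinase, at 4483. In Hjurp, Castor2 and Celf1 the midpoint was inside the window in 1 list each.

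Some genes were marked at their end and nowhere else. Of the 267 hosts with a gene-end peak in all 6 lists, 100 had no other peak in any list. The 8 with the highest scores were Calr, a calcium-binding chaperone of the endoplasmic reticulum, Hsp90aa1, the inducible cytosolic HSP90, Nefl, the light neurofilament subunit, Tuba1a and Tuba1b, alpha-tubulins, Map2k2, a kinase of the MAP kinase cascade, Gpatch4 and Wdr89. Each had a score of 3100 in all 6 lists. The Tuba1a region ran on chromosome 15 from 98949841 to 98951014 and that of Tuba1b from 98931425 to 98932562. Alpha-tubulin genes have near-identical copies, and the sources used here do not say how reads with several matches were counted, so the gene behind these 2 regions is uncertain.

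Regions restricted to 18 months made up a smaller share at gene ends than at gene starts. A region was called restricted when it had a peak in 3 of 3 lists of an age and none of the other. There were 81 gene-end regions (3.47%) restricted to 18 months, compared with 5.13% of all regions and 7.70% of gene-start regions, and 18 (0.772%) restricted to 3 months, compared with 0.637% of all regions. Counted by gene, 78 hosts had a gene-end peak in every 18-month and no 3-month list (3.37%, with 4.21% for any peak over all genes), and 23 the opposite (0.994%, with 0.752%). No test over lists separates these shares. At equal list length the genes numbered 24 and 35, and the regions 27 and 32, so the excess on the 18-month side was lost. Of the 78 calls 19 held there, and of the 23 calls 14. Leaving out 1 list relaxes the rule: without list 1, 2 or 3 at 18 months, 143, 162 and 137 genes and 136, 159 and 137 regions were restricted to 18 months, and 133 regions without list 3 at 3 months. Without list 1, 2 or 3 at 3 months, 41, 43 and 42 genes and 35, 34 and 34 regions were restricted to 3 months.

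Most of these genes had a peak with its midpoint outside the window at the other age. Of the 78 hosts, 43 had another peak in at least 1 list at 3 months, 22 of them in all 3, and of the 23, 15 had one at 18 months. In 11 of the 78 and 7 of the 23 the gene-end region itself held a peak of the other age whose midpoint fell outside the window. Such peaks can be among those just counted, so not all of these genes were marked away from their end. Fgf11, a fibroblast growth factor homologue that acts inside neurons, shows this. Its 3-month peaks were 1547, 1557 and 1614 bases wide, with midpoints 773.5, 815.5 and 807 bases from the end. The 18-month peaks were 2200, 2177 and 2132 bases wide and began near the same end, which put their midpoints at 1105, 1116.5 and 1139 bases. The region was thus present in all 6 lists, and the gene counted as restricted to 3 months because the 18-month midpoints lay outside the window. Fgf11 was singled out after its values were seen, as were Eef2, Gabbr1, Nrgn, Neurod6, Alkbh1 and Alyref among the genes named below.

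The 12 regions restricted to 18 months with the highest scores had values from 66.2 to 3100. Chgb, chromogranin B of secretory granules, had scores of 1471, 1297 and 1769 in the 3 lists at 18 months and no peak at its end at 3 months, on chromosome 2 from 132794752 to 132795079. Other parts of Chgb had peaks in all 3 lists at 3 months. Vsnl1, the calcium sensor visinin-like 1, was enriched on chromosome 12 from 11325245 to 11326504 with scores of 152.3, 212.1 and 666.2, and had another peak in 1 list at 3 months. Pgrmc1, a heme-binding membrane protein, had scores of 351.5, 378.7 and 467.6 on the X chromosome from 36604788 to 36606079. Phf23 had 478.2, 1372 and 643.5, and Senp6, a SUMO protease, 211.8, 307.9 and 149.2, both with peaks elsewhere at 3 months. Ndufa10, a subunit of respiratory complex I, had 271.3, 165.2 and 306.8 on chromosome 1 from 92439098 to 92439907. Scores in Eif5a, a translation factor with processed pseudogenes, ran from 66.3 in list 1 to 3100 in list 3, the widest spread here. Slitrk5, a synaptic adhesion protein, Zfp3, a zinc finger protein, Rhov, Pdzd4 and Tmem150b made up the rest. The midpoint was inside the window in 1 list each for Slitrk5 and Pdzd4 and in 2 for Tmem150b. Of these 12, Zfp3, Rhov, Slitrk5, Tmem150b and Eif5a had no peak at all at 3 months. With lists of equal length, Chgb, Phf23, Pgrmc1, Vsnl1, Zfp3, Ndufa10, Rhov and Senp6 still had a gene-end peak in 3 lists at 18 months and in none at 3 months.

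The median of a region's mean score was 96.7 for regions restricted to 3 months, 117.6 for those restricted to 18 months and 469.6 for those in all 6 lists. Pramel42, with 536.1, 740.9 and 360.7 on chromosome 5 from 94537361 to 94538367, and Plac9b, with 72.5, 159.7 and 168.6, come from families of similar copies, and the gene behind their peaks is uncertain. Enoph1, an enzyme of methionine salvage, had scores of 124.9, 66.2 and 151.0 on chromosome 5 from 100067799 to 100068765. Ide, the insulin-degrading enzyme, had 73.2, 91.0 and 107.1 on chromosome 19 from 37268741 to 37270746. Mcm3, a subunit of the replicative helicase, had 52.9, 125.0 and 71.1, and Terf2, a telomere-binding protein, 84.9, 73.5 and 62.0. Hspb7, a small heat shock protein, Gstt1, a glutathione transferase, Foxr1, Iqcd, Fam210b and Raver1 were the others. The midpoint was inside the window in 2 lists for Ide and in 1 for Raver1. Enoph1, Hspb7, Gstt1, Ide, Mcm3, Foxr1, Iqcd and Fam210b had no peak anywhere at 18 months. Pramel42, Plac9b, Terf2 and Raver1 had peaks elsewhere in the gene in all 18-month lists. At equal list length, Pramel42, Plac9b, Enoph1, Hspb7 and Gstt1 still had the peak in 3 lists at 3 months and 0 at 18 months. Mcm3, Terf2, Foxr1, Iqcd and Fam210b then had it in 2 lists at 3 months, so those calls were lost.

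**Figure D4:**
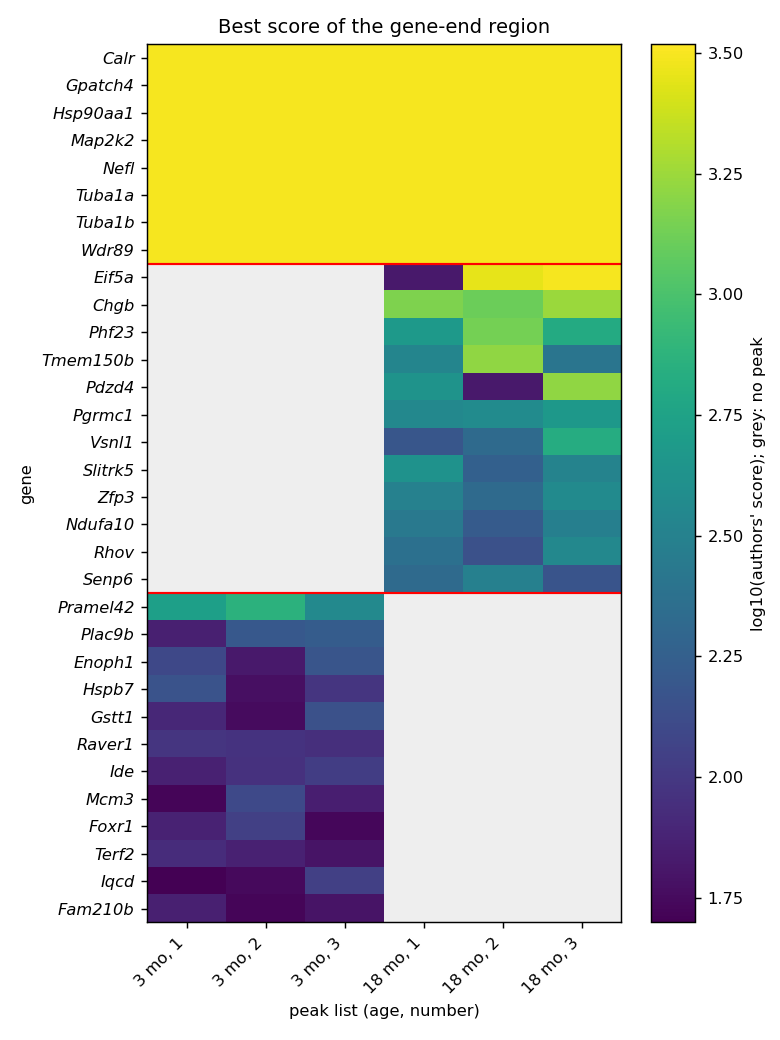
Best score of the gene-end region (log10 of the authors' score, colour) in each of the 6 lists, with grey where a list had no peak there. From top to bottom the blocks are the 8 genes marked only at their end in all lists, the 12 regions restricted to 18 months and the 12 restricted to 3 months. The first block has 3100 throughout, and scores in the lowest block stay below 741.

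Ribosomal protein genes had the largest share of hosts among lists in which 10 or more genes had a peak. Of 22 cytosolic ribosomal protein genes with any peak, 16 (72.7%) had one at their end, and of 28 translation factors 16 (57.1%), beside 25.6% of all genes with a peak. All 22 ribosomal protein genes had spans under 10 kb, the class in which 45.8% of genes were hosts. Of the translation factors, 11 of the 22 longer than 10 kb were hosts. Rpl13a, Rpl14, Rpl8, Rplp0, Rps6 and Rps9, components of both ribosomal subunits, had the peak in all 6 lists. Rpl14 had scores of 3100, 2411 and 3100 at 3 months and 3100 in each 18-month list, and Rps9 had 725.0, 452.1 and 307.6, then 748.3, 638.6 and 512.3. Rpl6 was restricted to 18 months, with 62.6, 274.0 and 134.5. With lists of equal length, Rpl6, Eif4a2 and Eif5a each had the peak in 2 lists at 18 months, so these calls were lost. Among translation factors, Eif3a, Eif3d and Eif3e, subunits of the scaffold that recruits the small ribosomal subunit, had the peak in all 6 lists. Eif3a had 3100, 836.9 and 2985 at 3 months and 1518, 2168 and 2549 at 18 months. Eif4a2, an RNA helicase of initiation, was restricted to 18 months with 158.2, 223.7 and 66.8, as was Eif5a. Eef2, the translocase of elongation, had 157.1 and 261.2 in 2 of the 3-month lists and 1772, 715.1 and 1206 at 18 months. Ribosomal protein genes and several translation factors have many processed pseudogenes.

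Chaperone and cytoskeletal lists also lay above the 25.6% of all genes. Of 30 heat shock and chaperone genes with a peak, 13 (43.3%) were hosts, with Calr, Hsp90aa1, Hspa9 and Pdia3 in all 6 lists. Hspa9, the mitochondrial HSP70, had scores of 1476, 266.4 and 2417 at 3 months and 1808, 1578 and 1234 at 18 months. Bag3, a co-chaperone of selective autophagy, was restricted to 18 months with 99.1, 59.9 and 70.6, and had no peak at 3 months. Hspe1, the mitochondrial co-chaperonin, had gene-end peaks in the 3 lists at 18 months with 50.3, 101.6 and 90.4, and others in every 3-month list. The gene-end peak of 18-month list 2 lay in a separate region from those of lists 1 and 3, so the call is by gene. Neither call held at equal list length, where Bag3 and Hspe1 had the peak in 0 lists at 18 months. Of 33 microtubule and motor genes, 14 (42.4%) were hosts, namely all 7 with spans of 2 to 10 kb and 7 of the 26 longer ones. Map7d1, Nefl, Nefm, Stmn1, Tuba1a and Tubb3 had the peak in all 6 lists. Stmn1, which destabilises microtubules, had 312.9, 346.9 and 138.2 at 3 months and 1498, 1229 and 1226 at 18 months, and Tubb3, the neuronal beta-tubulin, 247.7, 180.7 and 233.7 and then 755.2, 724.4 and 525.3. These scores stand side by side and were not compared between lists. Of 26 oxidative phosphorylation genes with a peak, 11 were hosts, with Ndufa9 in all 6 lists.

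Synaptic and signalling lists lay on both sides of the 25.6% of all genes. In the presynaptic list 9 of 32 genes with a peak were hosts, in that of postsynaptic scaffolds and adhesion 7 of 30, among glutamate receptors 4 of 23, in the GABA list 1 of 16 (Gabbr1, a subunit of the metabotropic receptor, in 2 lists at 18 months), and in insulin and mTOR signalling 2 of 25. The median span of peaked members was 277783 bases for glutamate receptors, 3995.5 for ribosomal proteins and 149452 for the axon guidance list, in which 39.4% were hosts. Constant gene ends were found in Rph3a, a vesicle protein, Cdh2, or N-cadherin, and Nrxn2, a presynaptic neurexin. Rph3a had 336.4, 202.8 and 432.1 at 3 months and 1699, 647.6 and 706.2 at 18 months. Nrxn2 had 1006, 896.2 and 1704 and then 3100 in each list. Cdh2 had 1801, 1079 and 1386 and then 1544, 1604 and 1343. Dlgap3, a postsynaptic scaffold protein whose mRNA is found in dendrites, was restricted to 18 months with 61.7, 196.3 and 298.8. Kcnip3, a calcium-binding partner of potassium channels, was likewise, with 113.5, 242.0 and 241.3. At equal list length Dlgap3 and Kcnip3 had the peak in 2 lists at 18 months, so both calls were lost. Of 25 genes listed for dendritic mRNAs, 3 were hosts. In potassium channels it was 6 of 31 (Kcna6 in all 6 lists), in sodium and calcium channels 6 of 24, in CaMK, PKA and CREB signalling 5 of 31, in immediate early genes 3 of 14 and in Alzheimer-linked genes 10 of 27 (37.0%).

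Among lists of genes that act on RNA and chromatin, the share of hosts ran from 20.0% for m6A to 31.8% for factors of 3' end processing. Of 22 factors of 3' end processing with a peak, 7 were hosts and 1, Scaf4, which prevents early termination, had the peak in all 6 lists, with 1200, 523.4 and 1463 at 3 months and 987.4, 1454 and 1348 at 18 months. In RNA-binding proteins of 3' untranslated regions it was 7 of 30, and Ago1, an Argonaute protein, was restricted to 18 months with 73.7, 82.5 and 73.9. Among m5C writers, erasers and readers 3 of 10 were hosts, namely Ybx1, Alkbh1 and Alyref. Ybx1, an m5C-binding protein, had 490.0, 76.6 and 75.8 at 3 months and 1980, 1718 and 2148 at 18 months. In the m6A list it was 4 of 20, with Ythdc1, the nuclear m6A reader, in all 6 lists. Splicing factors had 7 of 34. Chromatin regulators had 11 of 38, with Chd8, a remodeller, in all 6 lists, and Kdm2a and Kdm6b, histone demethylases, restricted to 18 months with 150.2, 114.6 and 267.1 and 109.7, 173.3 and 107.5. Both had other peaks in every 3-month list. With lists of equal length, Kdm2a kept its peak in 3 lists at 18 months and none at 3 months, while Kdm6b had it in 1 and Ago1 in 0, so those calls were lost. Semaphorins, ephrins and axon guidance had 13 of 33, with Ephb1 in all 6 lists. Glycolysis and 14-3-3 proteins had 8 of 19, ubiquitin and proteasome 8 of 29, and Rab, lysosome and autophagy 8 of 36, with Gabarapl1 in all 6 lists.

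Cell type markers were present at gene ends at both ages. Of 17 pyramidal and granule neuron markers with any peak, 3 were hosts, among them Nrgn and Neurod6, and of 12 inhibitory neuron markers 2. The numbers were 9 of 18 for astrocytes, 5 of 17 for oligodendrocytes, 2 of 5 for their precursors, 8 of 12 for microglia and 9 of 15 for endothelial and mural cells. Microglia, endothelial and mural, and astrocyte markers, at 66.7%, 60% and 50%, lay above the 25.6% of all genes with a peak, and the neuronal lists, at 17.6% and 16.7%, below it. A host needs the peak in only 1 list, and 42.4% of all hosts had it in exactly 1. Among microglia markers this was so for C1qb, C1qc, H2-D1, H2-K1 and Laptm5. Among astrocyte markers it was so for Aqp4, Fgfr3, Gfap, Gjb6, Mlc1, Ntsr2 and S100b, and among endothelial and mural markers for Kcnj8 and Kdr. The median span of peaked markers was 10919.5 bases for microglia, 40313 for endothelial and mural cells and 14232.5 for astrocytes. Itgam, an integrin of microglia, had the peak in all 6 lists, with 144.8, 107.0 and 137.0 at 3 months and 591.2, 437.3 and 397.7 at 18 months, as did Mal, a myelin protein. Pecam1, an endothelial adhesion protein, was restricted to 18 months with 77.1, 68.8 and 63.3, all close to the lowest listed score of 50. Its call was lost at equal list length, where Pecam1 had the peak in 0 lists at 18 months. Among the 9 endothelial and mural hosts, 5 had the peak in more 18-month lists and 4 in more 3-month lists. Over all hosts the numbers were 1271 and 528. Of 12 choroid plexus and ependyma markers 1 had a peak, in 1 list at 3 months. In this bulk tissue fewer cells of a type and less RNA per cell cannot be told apart, and their part in the presence of a peak was not tested.

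**Figure D5:**
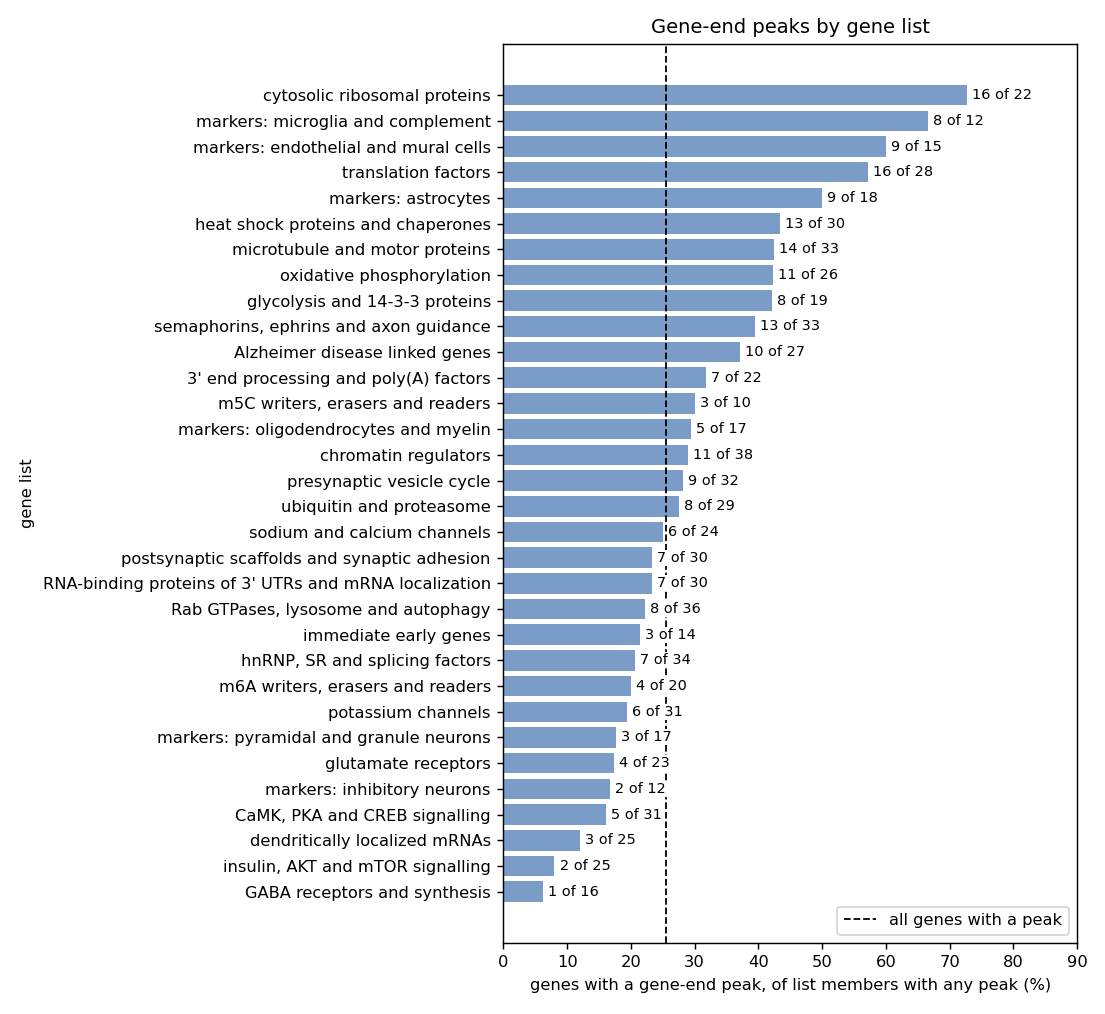
Share of list members with any peak that had a gene-end peak in at least 1 list (percent, bars, with the counts beside them), for lists with at least 10 such members. The dashed line marks the 25.6% of all genes with a peak, and ribosomal proteins, at 72.7%, stand at the top.

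Few gene-end regions held the annotated start of another gene or a miRNA hairpin. Such a start lay on the opposite strand in 10 hosts and on the host's strand in 4. The counting rule leaves out peaks that overlap a second protein-coding span of at least 2000 bases on their own strand. These counts are therefore not comparable between strands. A miRNA hairpin of RefSeq lay inside the gene-end region of 5 hosts, on the host's strand in Vmp1, an autophagy protein, and Pde4dip. The Vmp1 region holds the hairpin of Mir21a on chromosome 11 from 86584067 to 86584158, and it was singled out after its values were seen. Its mature miRNAs, with the seed (bases 2 to 8) in capitals, are shown because the peaks cover them.
mmu-miR-21a-5p: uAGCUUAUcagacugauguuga
mmu-miR-21a-3p: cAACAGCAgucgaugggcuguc
The Vmp1 peak had scores of 51.9 and 53.7 in 3-month lists 1 and 3, at percentiles 2.48 and 5.63 of those lists, and list 2 had none. It had 3100 in each 18-month list. In 18-month lists 1 and 2 it ran from 86583940 to 86584384, a stretch of 445 bases around the hairpin, and in list 3 over 1536 bases. At 3 months it was 1206 and 1587 bases wide. The fragments cannot be assigned to the Vmp1 mRNA or to the miRNA precursor from these lists.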

How the data were processed

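Build mm10, HISAT2 2.0.4 and cutadapt 1.9.3 are named, per the submitters' processing notes. Each peak carries a score set by the authors. Peak names hold the word MACS, and the sources used here give neither version nor settings of the caller. Gene spans (21900, protein-coding) came from RefSeq, GRCm38.p6, without exons. Strand was taken from a promoter table for 17492 genes and from the majority of unambiguous peaks for 1831. The 2577 without a strand could not be hosts. They counted as lying on both strands only when peaks that overlapped more than 1 span were left out. Coordinates count from 1. Members, gene lists and rules were chosen with earlier results of these data known. Named were the 12 highest-ranking regions in all 6 lists, the 12 restricted to each age, the 8 hosts marked only at their end, the 5 widest regions in all 6 lists, the 5 hosts with most gene-end regions, and list members in all 6 lists or restricted, without predicted genes. Lists were compared by two-sided exact permutation tests in Python 3.11.15 (pandas 2.3.3, numpy 2.4.6). Placement was tested on simulated data. Other settings were windows of 500 and 2000 bases, stricter overlap, equal list length, scores from the median upward, another joining rule, each list left out and a replicate block. Counting intervals are not given, since depth is unknown. The labels name a workbook of methylated sites, which was not analysed here.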

Additional observations from a re-analysis of the deposited data

How the results depend on the processing

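Depth is unknown, so its part in the absence of a peak was not tested. The ratio of gene-end to gene-start peaks and the share of gene-end peaks kept their direction under every setting run. With lists of equal length the 18-month minus 3-month difference turned to -48.3 peaks and -46.3 host genes. That in the median score percentile turned to 1.03 there, to 0.134 with the 500-base window and to 3.38 with scores from the median upward. The 500-base window gave 42 regions and 38 genes restricted to 18 months and 8 and 7 restricted to 3 months. Equal length gave 27 and 24, and 32 and 35; scores from the median upward gave 34 and 32, and 7 and 9. Leaving out each list in turn gave differences of 302.5 to 400 peaks, 300.7 to 399.2 host genes, -0.681 to -0.369 percentage points of share, -0.187 to -0.111 in the ratio, -1.57 to -0.873 percentiles and -23.5 to 29 bases of width. Restricted counts then ran from 92 to 159 regions and 88 to 162 genes for 18 months, and 24 to 35 and 28 to 43 for 3 months, as the rule asks for fewer lists. The cause of the other changes was not tested.

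The numbers 1 to 3 in the list names showed no sign of pairing the samples. Deviations of same-numbered lists correlated at -0.0454, -0.0186 and -0.0128 over host genes, and no list correlated best with its own number. Correlations this small over 3 lists per age cannot exclude a pairing. With a replicate block (exact sign-flip permutation test over 3 pairs, smallest p 0.25) the differences were 354 peaks, -0.50 percentage points, -0.147, 353 genes, -1.29 percentiles and 7.33 bases, and no result passed 0.05.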
